A study of Mus musculus with 4 samples.

Results

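The genes described here are Hmox1 and 9 other targets of the transcription factor NRF2 (Sqstm1, Gclm, Gclc, Slc7a11, Txnrd1, Srxn1, Nqo1, Prdx1 and Gsr). They were chosen by name, with earlier results of these data known, and read from every probe whose accession belongs to one of them. All 10 were found, on 13 of the 39429 probes of the array: Hmox1, Prdx1 and Gsr had 2 probes each and the other 7 genes had 1. The array carried 20971 named genes in all. The cells were RAW 264.7, a mouse macrophage-like line of BALB/c origin, and the groups were untreated cells and cells kept with Lactobacillus bulgaricus, a lactic acid bacterium of fermented milk, at a multiplicity of infection of 10 for 1, 4 or 6 h. Each group was measured on 1 two-colour array with RNA pooled in equal amounts from 3 cultures and labelled with Cy5. This RNA was set against a common reference in Cy3, described as RNA pooled from all the groups. The spot positions in the scanner files place the 4 arrays side by side in the order of the times; if they shared a slide, which only these positions show, place and time cannot be told apart. In pooled RNA, more expressing cells and more transcript per cell cannot be told apart either.

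NRF2, encoded by Nfe2l2, is held in the cytosol by KEAP1, which hands it to a CUL3 ubiquitin ligase for destruction. Oxidants and electrophiles modify KEAP1, and NRF2 then accumulates, enters the nucleus with a small MAF partner and binds antioxidant response elements, from which BACH1 otherwise represses genes such as Hmox1. Its targets make glutathione, recycle thioredoxin and peroxiredoxins, and break down heme, and in macrophages they are induced by many inflammatory and oxidative stimuli. The SQSTM1 protein itself binds KEAP1.

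The stretch of 250 bases before the gene start was searched on both strands for TGACNNNGC, the core of the antioxidant response element, and for TGANTCA, the AP-1 site, which can overlap it. The 7 members with an entry in the RefSeq promoter table of GRCm38.p6 had 9 such windows, of which 3 belonged to Txnrd1; Hmox1, Gclc and Gsr had none. The core as searched stood in windows of 3 members, Gclm, Prdx1 and Txnrd1, and the AP-1 site in those of 2, Prdx1 and Srxn1. The search pattern fixed a C after TGA, so the letters TGAGTCAGC in the Srxn1 window were not counted as a core. Over the 32851 windows of the whole table, 10.2% held the core and 6.75% the AP-1 site. The 4 windows with a match are shown so that the letters found near these starts can be read; all lie on the plus strand, and capitals mark the matches.
Gclm: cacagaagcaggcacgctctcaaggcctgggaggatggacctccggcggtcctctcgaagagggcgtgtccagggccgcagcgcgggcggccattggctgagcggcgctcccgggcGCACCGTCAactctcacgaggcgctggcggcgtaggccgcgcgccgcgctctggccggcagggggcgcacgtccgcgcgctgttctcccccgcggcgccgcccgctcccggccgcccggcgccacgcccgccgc
Prdx1: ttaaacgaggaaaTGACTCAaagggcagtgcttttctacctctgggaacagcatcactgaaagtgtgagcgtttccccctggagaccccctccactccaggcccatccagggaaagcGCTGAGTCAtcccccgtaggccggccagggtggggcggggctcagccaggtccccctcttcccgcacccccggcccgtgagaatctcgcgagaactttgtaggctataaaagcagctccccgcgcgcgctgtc
Txnrd1: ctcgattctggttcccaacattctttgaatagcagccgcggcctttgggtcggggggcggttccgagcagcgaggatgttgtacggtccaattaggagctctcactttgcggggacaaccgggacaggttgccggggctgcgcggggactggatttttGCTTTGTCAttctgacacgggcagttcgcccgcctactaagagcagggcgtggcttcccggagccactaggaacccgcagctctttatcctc
Srxn1: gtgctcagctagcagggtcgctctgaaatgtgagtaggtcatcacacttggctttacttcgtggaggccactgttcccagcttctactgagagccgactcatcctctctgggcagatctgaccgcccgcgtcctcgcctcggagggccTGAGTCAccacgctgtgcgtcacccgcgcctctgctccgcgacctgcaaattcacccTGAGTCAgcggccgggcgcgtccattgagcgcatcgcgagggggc
The Gclm window is chr3:122245307-122245556, with the core 134 to 126 bases before the start. The Prdx1 window is chr4:116685349-116685598, with an AP-1 site 237 to 231 bases before the start and a core at 133 to 125 that overlaps a second AP-1 site at 131 to 125. The Txnrd1 window is chr10:82858956-82859205, with the core at 92 to 84, and the Srxn1 window is chr2:152105274-152105523, with AP-1 sites at 102 to 96 and 45 to 39. A match is a description of the letters, and the enhancers of these genes can lie outside such a window.

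The scanner software marked all 13 probes as well above background in both dyes on all 4 arrays, and none as saturated. The probes of Nqo1, Slc7a11 and Gclm were nevertheless dim and close to background. Differences below are log2 ratios (Cy5 over Cy3) of a treated array minus that of the untreated array, which cancels the reference. Each group had 1 array, so nothing was tested, and the precision is limited by that number. The rule of size for a higher or lower gene was a difference of at least 1, that is 2-fold, in either direction. Probes printed 10 times gave a spot SD of 0.13 for a difference at each of the 3 times, and the error that the scanner software gives each ratio came to 0.29 to 0.50 for a difference over the 13 probes. Both describe the slide measurement, and how cultures vary is not in them. The counts by spot SD below use the smaller of these errors.

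After 1 h no member had moved by the rule of size (0 of 10, against 0.328% of 10369 genes higher and 0.0482% lower; at 1.5-fold again 0 of 10, against 1.3% higher), and 7 of the 10 lay within 1 spot SD of untreated cells. No member exceeded 2 spot SDs (0 of 10, against 7.4% of all genes), and 8 of 10 lay above 0, against 70.6%. Their median difference was 0.08, against 0.06 over all genes. After 4 h all 10 members lay above 0, as did 50.9% of all genes. Their median was 0.40 against 0.00 over all genes. By the ratio 8 of 10 stood above untreated cells by over 2 spot SDs, against 9.58% of all genes. The 8 included Gclm, whose Cy5 alone differed by -0.07. By 2-fold 0 of 10 moved in either direction, against 0.242% higher and 0.213% lower. At 1.5-fold 2 of 10, Hmox1 and Sqstm1, were higher, against 1.34%. After 6 h again all 10 lay above 0, against 47.9% of all genes, with a median of 0.46 against -0.01. Hmox1 passed the rule of size (1 of 10 higher, against 0.456% of 10311 genes, and 0 lower, against 0.466%). By the ratio 8 of 10 exceeded 2 spot SDs, against 12.3%, again with Gclm among them, at -0.06 in Cy5 alone. At 1.5-fold the higher members were again Hmox1 and Sqstm1 (2 of 10, against 2.03%). The 3 comparisons share the untreated array. Because the members were chosen with earlier results of these data known, the shares of all genes beside them are a description only.

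**Figure D1:**
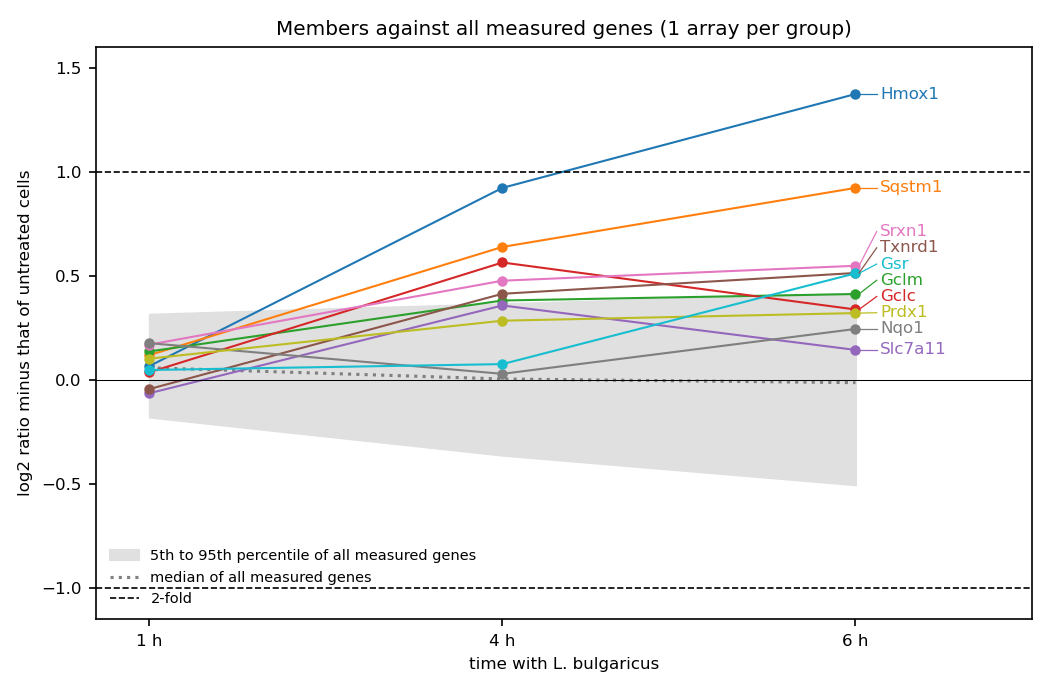
Difference of log2 ratios between each treated array and the untreated array (vertical axis) at 1, 4 and 6 h (horizontal axis, evenly spaced), 1 line per member, with 1 array per group. The grey band holds the 5th to 95th percentile of all measured genes; at 6 h Hmox1 stands at 1.37 and Sqstm1 at 0.92, and the other 8 members lie between 0.14 and 0.55.

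Hmox1 encodes the inducible heme oxygenase, which splits heme into biliverdin, iron and carbon monoxide. Its probe A_55_P2029687 had processed Cy5 signals of 2197 in untreated cells, 2920 at 1 h, 5891 at 4 h and 8920 at 6 h, while the reference read 2829, 3416, 3552 and 3898 on the same arrays. The other probe, A_51_P263965, read 20744, 22683, 31237 and 50807 in Cy5 and 33482, 33934, 30481 and 32393 in the reference; its 4 h spot was marked as an outlier and left out, so that the 4 h value of Hmox1 rests on 1 probe. Both probes were lowest in untreated cells and highest at 6 h. The differences in log2 ratio were 0.07, 0.92 and 1.37 at 1, 4 and 6 h, so Hmox1 rose 2.59-fold by 6 h, and at 6 h the probes stood at 1.44 and 1.31. In order of the ratio, 6 h stood above 4 h by 0.52 on the 1 probe kept at both times, and 4 h above 1 h by 0.81, while 1 h and untreated cells differed by less than the spot SD. Hmox1 ranked 33rd from the top of 10339 genes at 4 h and 23rd of 10311 at 6 h.

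Sqstm1 encodes p62, a cargo receptor of autophagy. Its Cy5 signal was 4798 in untreated cells and 7521, 10832 and 13313 at 1, 4 and 6 h, and its reference 4811, 7100, 6866 and 6804. The untreated array was thus the lowest in both dyes, although the reference held the same RNA on every array. The ratio differed by 0.12, 0.64 and 0.92, whereas Cy5 alone, normalized across arrays, differed by 0.65, 1.29 and 1.47 and the reference by 0.53, 0.65 and 0.55. In Cy5 alone 0 of 10 members were higher by 2-fold at 1 h (against 0.376% of genes), and 2 of 10, Hmox1 and Sqstm1, were at 4 h (against 0.474%) and at 6 h (against 1.54%). On the ratio Sqstm1 ranked 110th at 4 h and 61st at 6 h.

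**Figure D2:**
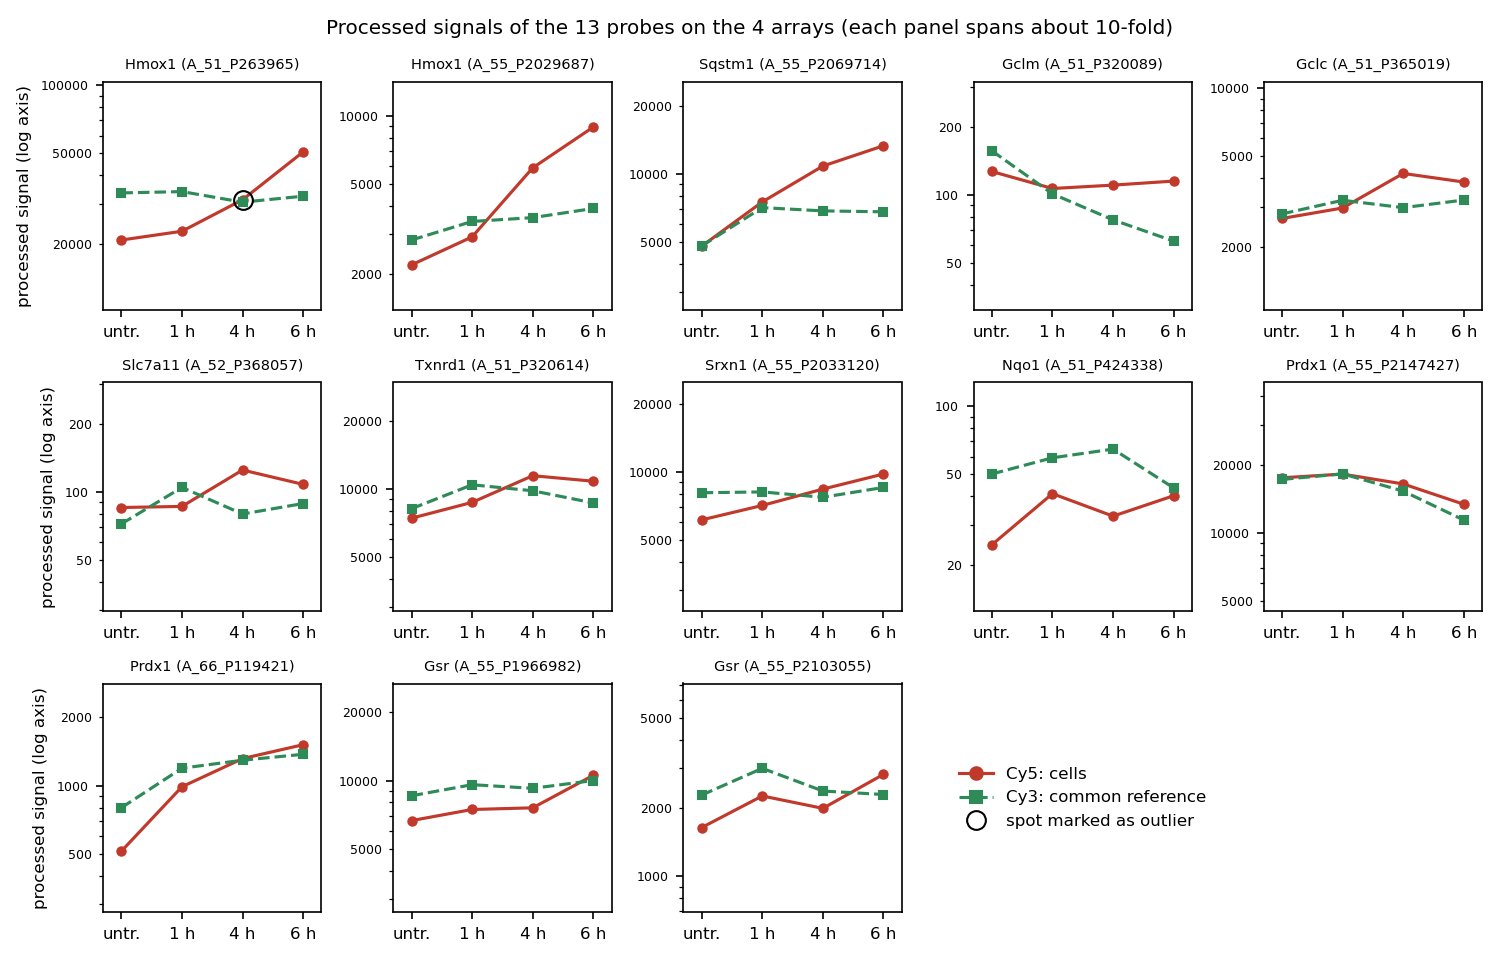
Processed signals of the 13 probes on the 4 arrays, in Cy5 (cells) and Cy3 (common reference), on a log axis with about 10-fold per panel and 1 array per point. The circle marks the Hmox1 spot left out at 4 h; in both Hmox1 panels Cy5 is highest at 6 h, and the Sqstm1 reference is lowest on the untreated array at 4811.

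Glutathione is made in steps that begin with the uptake of cystine, for which Slc7a11 encodes the exchanger subunit, and with glutamate-cysteine ligase, of which Gclc is the catalytic and Gclm the modifier subunit. Gclc had Cy5 signals of 2660, 2959, 4203 and 3852 in untreated cells and at 1, 4 and 6 h, against a reference of 2786, 3201, 2969 and 3208. Its differences were 0.04, 0.56 and 0.34, so that 4 h was the highest point and 6 h lay 0.23 below it (-0.23). Slc7a11 was dim, with Cy5 signals of 85.3, 86.3, 124.9 and 107.9 and differences of -0.06, 0.36 and 0.14. It too was highest at 4 h, and 6 h minus 4 h was -0.21. In the scanner's processed signals its differences were -0.52, 0.40 and 0.04.

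Gclm differed from untreated cells by 0.14, 0.38 and 0.41, but not through Cy5. Its Cy5 signal was 126.9, 106.8, 110.5 and 115.2, with the untreated array the highest, while the reference stood at 156.7, 101.2, 77.6 and 62.5. Normalized Cy5 alone differed by -0.20, -0.07 and -0.06 and the reference by -0.33, -0.45 and -0.47. The direction of Gclm therefore turns when Cy5 is not divided by the reference, while the ratio of the processed signals differed by 0.38, 0.81 and 1.18. The median Cy5 spot signal of this probe was 3.50 to 6.30 times its local background.

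Txnrd1 (thioredoxin reductase), Srxn1 (sulfiredoxin, which restores overoxidized peroxiredoxins) and Prdx1 (a peroxiredoxin that removes hydrogen peroxide) belong to the thioredoxin branch. Srxn1 had Cy5 signals of 6139, 7111, 8395 and 9786, in the order of time, with a reference between 7727 and 8538. Its differences were 0.17, 0.48 and 0.55, and those of Cy5 alone were 0.11, 0.40 and 0.51. Txnrd1 read 7419, 8715, 11428 and 10803 in Cy5 and differed by -0.04, 0.41 and 0.51; in Cy5 alone 4 h was the highest, at 0.53 against 0.35 at 6 h. Neither gene reached 2-fold at any time.

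The 2 probes of Prdx1 went apart. Probe A_66_P119421 had Cy5 signals of 513, 988, 1316 and 1516, and its reference read 799, 1193, 1295 and 1375. Probe A_55_P2147427 had Cy5 signals of 17483, 18149, 16419 and 13356, and its reference read 17190, 18193, 15266 and 11375. In both probes the reference moved with Cy5, upwards in the first and downwards by 6 h in the second. At 6 h Cy5 alone differed by 1.30 on the first probe and by -0.45 on the second, whereas their ratios differed by 0.52 and 0.12. The mean of both ratios gave 0.10, 0.28 and 0.32 for Prdx1 at 1, 4 and 6 h.

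Gsr, the glutathione reductase, was the late member. Probe A_55_P1966982 read 6654, 7450, 7577 and 10544 in Cy5, and probe A_55_P2103055 read 1642, 2264, 1996 and 2821. The 6 h array was the highest on both. The gene differed by 0.05, 0.08 and 0.51, and 6 h minus 4 h was 0.37 on the first probe and 0.50 on the second. Nqo1, a quinone reductase often used as a readout of NRF2, was the dimmest member, with Cy5 signals of 24.5, 41.1, 32.7 and 40.3 and a spot brightness of 1.97 to 2.60 times local background. It differed by 0.18, 0.03 and 0.24, and in the scanner's processed signals by 0.51, 0.06 and 0.92, with a scanner error of 0.50 for each.

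**Figure D3:**
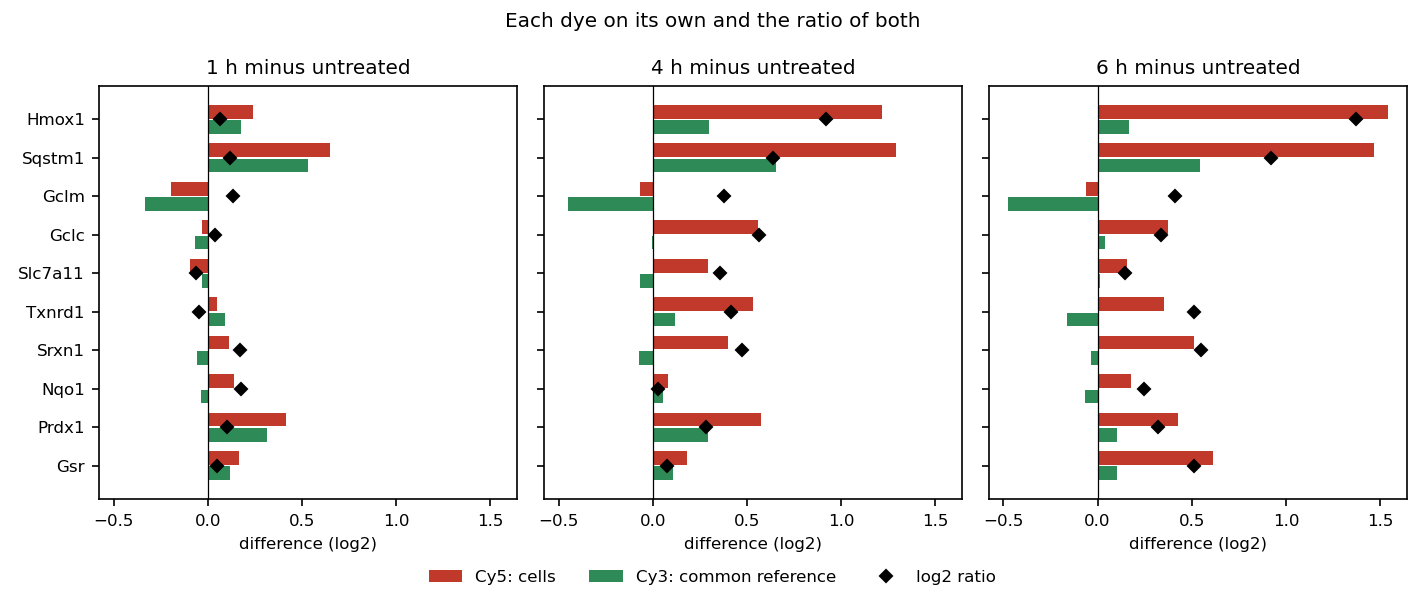
Differences between each treated array and the untreated array for Cy5 alone and Cy3 alone (bars) and for their ratio (diamonds), on the log2 scale, by member. At 6 h the reference bar is 0.55 for Sqstm1 and -0.47 for Gclm, and between -0.16 and 0.17 for the other members. The Prdx1 bar, at 0.10, is the mean of 2 probes whose reference differed by 0.78 and -0.57.

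Genes that control the pathway came next. Of 15 listed regulators 13 were measured, and 0 passed 2-fold at any time; the median was 0.07, 0.04 and -0.05. Nfe2l2 stood at 0.10, 0.39 and -0.24, highest at 4 h, with Cy5 signals of 1839, 2890, 3868 and 1760 in untreated cells and at 1, 4 and 6 h. The small MAF gene Maff stood at 0.41, -0.03 and 0.29, Mafg at -0.05 at 4 h and -0.29 at 6 h, and the stress sensor Sesn2 at 0.74, -0.22 and -0.78. In Cy5 alone Sesn2 stood at 0.92, 0.19 and -0.37, and its reference at 0.18, 0.41 and 0.41.

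Among 30 further known NRF2 targets, 26 were measured at 1 and 4 h and 25 at 6 h, and again 0 passed 2-fold. Their medians of 0.01, 0.03 and 0.17 lay closer to those of all genes (0.06, 0.00 and -0.01) than the medians of the 10 members at 4 and 6 h did, and 14 of 26, 15 of 26 and 20 of 25 lay above 0, against 70.6%, 50.9% and 47.9% of all genes. The members of this list with the largest differences were Slc48a1, a heme transporter, at 0.01, 0.57 and 0.75, Ptgr1, a prostaglandin reductase, at 0.35, 0.47 and 0.67, Ftl1, the ferritin light chain, at -0.05, 0.20 and 0.61, and Blvrb, a biliverdin reductase, at -0.54, -0.50 and -0.30. In Cy5 alone Slc48a1 stood at -0.14, 0.43 and 0.41, Ptgr1 at 0.64, 0.67 and 1.04, and Blvrb at -0.10, -0.24 and -0.15. The value of Ftl1 rests on 1 of its 2 probes, for which Cy5 alone stood at 0.02 at 6 h and the reference at -0.585. The other probe, whose spots were marked as outliers and left out at 1, 4 and 6 h, read 81462 at 6 h and 60513 in untreated cells in processed Cy5, and 45845 and 46634 in Cy3.

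In heme and iron handling, 11 of 13 listed genes were measured and 0 passed 2-fold, with medians of 0.03, 0.18 and 0.11. In the processed signals 1, Slc40a1, was higher by 2-fold at 6 h, as were 229 of 10311 genes. The iron exporter Slc40a1 stood at -0.08, 0.53 and 0.75, and in Cy5 alone at -0.17, 0.57 and 0.77. Its processed signals, in which it was dim, gave -0.68, 0.95 and 1.46.

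Of the 24 listed enzymes of glutathione, thioredoxin and peroxide removal, 20 were measured at 1 h and 21 later, with medians of 0.03, 0.01 and 0.16. At 1 h 1 gene was higher, against 0.328% of all genes, and at 6 h 1 was higher and 1 lower, against 0.456% and 0.466%. The higher gene at 6 h was Txnip, the thioredoxin-interacting protein that inhibits thioredoxin, at 0.09, 0.80 and 1.07. Chac1, which degrades glutathione, was the other in both cases, at 1.32, -0.88 and -1.73. The ATF4 amino acid response, which also drives Slc7a11, had 12 of 14 members measured and medians of 0.24, -0.10 and -0.21, with Chac1 its only member past 2-fold. In the processed signals Atf3 and Ddit3 were higher too at 6 h, as were 229 of 10311 genes. Slc3a2, a member of this list and the partner subunit of SLC7A11, stood at 0.43, -0.21 and -0.40, and Atf3 at 0.59, 0.13 and 0.94. In Cy5 alone Slc3a2 was not below untreated cells, at 0.67, 0.10 and 0.02, while its reference stood at 0.24, 0.31 and 0.42.

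**Figure D4:**
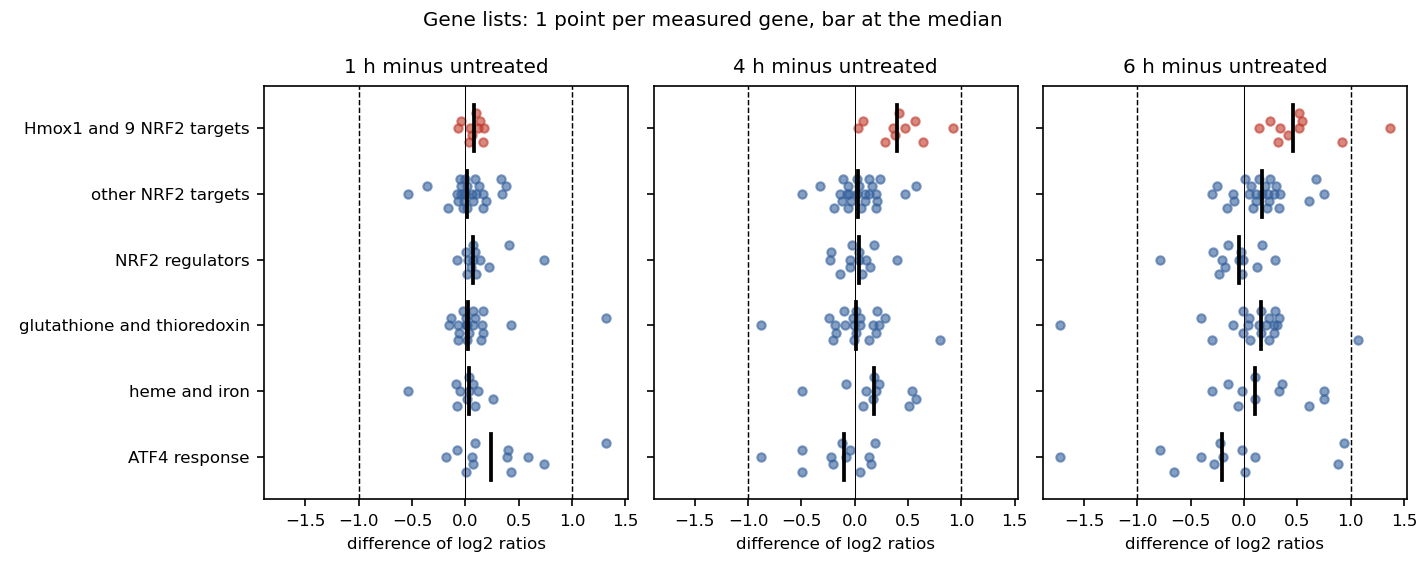
Differences of log2 ratios at 1, 4 and 6 h for the 10 members and 5 other gene lists, with 1 point per measured gene, a bar at the median and dashed lines at 2-fold. At 6 h the median is 0.46 for the 10 members, 0.17 for other NRF2 targets and -0.21 for the ATF4 response.

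The gene whose 3 differences lay nearest to those of Hmox1, by Euclidean distance among 9842 genes measured on all 4 arrays, was Ptpn14, a tyrosine phosphatase, at a distance of 0.26. Its differences were 0.19, 0.78 and 1.55. Csf3, a granulocyte growth factor, followed at 0.30, then Txnip at 0.33, the chemokine Cxcl10 at 0.38 and Efna1, an ephrin ligand, at 0.40. Sqstm1 was the nearest other member, at 0.54 and rank 15, followed by Srxn1 at 0.94 and rank 125, and Nqo1 was the farthest at 1.44 and rank 1932. These distances describe 3 differences that share the untreated array, and the order depends on the source of the values. In the processed signals Ptpn14 stood at 0.24, 1.57 and 2.94 and fell to rank 2243, Csf3 to 166 and Txnip to 17, while Cxcl10 was at rank 2 and Efna1 at rank 5. Sqstm1 stood at rank 68 there, and Gclm, at rank 30, was the nearest other member.

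Markers of other cell types moved with time as well. Of 12 macrophage markers the array carried 11, each well above background in Cy5 on every array, and their summed processed Cy5 signal was 173244 in untreated cells and 186872, 185902 and 161444 at 1, 4 and 6 h. Markers of fibroblasts, endothelium, muscle and epithelium summed to 2800, 4254, 5822 and 4975, with 9 of 11 above background on each array and Cdh5 and Col1a1 on none. In this list Myl9 stood at 0.62 at 1 h and 1.53 at 4 h and was past 2-fold at 6 h too. Dcn stood at 0.17, 0.77 and 0.93, and at 0.55, 1.85 and 2.03 in the processed signals, where its untreated Cy5 was dim, at 69.1. In these signals 4 of the 8 measured genes of the list were higher by 2-fold at 4 h, against 144 of 10339 genes, and 3 at 6 h, against 229 of 10311. By the ratio this list had medians of 0.39, 0.52 and 0.64. Above 0 lay 7, 8 and 6 of 8 genes, against 70.6%, 50.9% and 47.9% of all genes. At 6 h Col1a2 stood at -0.04 and Col3a1 at -0.09. Intestinal markers summed to 6954, 13176, 9315 and 8368, with 17 of 17 above background in untreated cells and at 1 h and all but Fabp1 at 4 and 6 h. Their reference summed to 27400, 22085, 22187 and 21325. On every array this reference sum lay above the Cy5 sum of every group, and the make-up of the reference was not tested. Of those measured, 4 of 17 were higher by 2-fold at 1 h (against 0.328% of all genes) and 3 of 16 at 4 h (against 0.242%). At 4 h 1 was lower (against 0.213%), and at 6 h 4 of 16 were higher (against 0.456%). Reg3b, an antimicrobial lectin of the gut, stood at 4.18, 2.98 and 2.46, and its relative Reg3g at 3.02, 2.38 and 1.40. Lct, a list member that went down, stood at -0.45, -1.71 and -0.79. Sis went down too, at -0.45, -0.19 and -0.88, as did Fabp1 at 1 h, at -0.50. The list had medians of 0.52, 0.39 and 0.43, with 14 of 17, 13 of 16 and 11 of 16 above 0. In Cy5 alone the medians were 0.27, 0.08 and -0.07, with 11 of 17, 11 of 16 and 7 of 16 above 0. In the processed signals 5 of 17, 5 of 16 and 6 of 16 were higher by 2-fold, against 117, 144 and 229 of all genes. Lower by 2-fold were 2, 1 and 2, against 42, 99 and 195 of all genes. Of 10 housekeeping genes 8 were measured at 1 h and 7 later; their medians were -0.04, -0.13 and -0.19, and Gapdh stood at -0.90, -0.98 and -0.64 by the ratio but at 0.02, -0.19 and 0.08 in Cy5 alone. The part of these marker and housekeeping genes in the values of Hmox1 and the other members was not tested.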

How the data were processed

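Per the labels, Cy5 held RNA of the cells and Cy3 the common reference, with no dye swap. The array design is annotated on mm9 and was scanned to signals by Agilent Feature Extraction 10.5.1.1, per the file headers. The deposited scanner files give uncorrected intensity values (spot and local background medians), processed intensity values after the software's own background and dye correction, and their log10 ratio with a modelled error. The deposited series table holds the same log10 ratio, matched by feature number.

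Median signals were corrected by normexp (offset 50) and normalized by loess within each array in limma 3.58.1 (R 4.3.3), with control and outlier spots at weight 0. The normalization code was checked on simulated data with known changes. Values of a single dye are after loess and Aquantile normalization. Both steps use the mean of both dyes, so the reference enters the normalization of Cy5 alone. Processed signals have no step between arrays. Probes were named by accession through RefSeq genes of GRCm38.p6 (27655 of 39429), required to be well above background in both dyes on both arrays, and averaged per gene. Each array had 43020 spots, with 1.55% to 1.84% marked as outliers and left out. Named genes were the members, up to 4 per other gene list with the largest differences and the 5 genes nearest to Hmox1. Lct, Sis, Fabp1, Col1a2 and Col3a1 were named in addition, as marker genes that lay below 0. Members and lists were chosen with earlier results of these data known. Alternatives changed background, normalization, source of values, filters, probe choice and rule of size. The gene lists and the order of nearest genes were also computed in the processed signals, an alternative chosen after seeing the data. Tables were made with pandas 2.3.3 and numpy 2.4.6 under Python 3.11.15, and plots with matplotlib 3.10.9.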

Additional observations from a re-analysis of the deposited data

Results flagged for a closer look

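Chac1 passed 2-fold in opposite directions at different times: its log2 ratio differed from untreated cells by 1.32 at 1 h and by -1.73 at 6 h. Cy5 alone differed by 1.64 and -0.77 and the reference by 0.32 and 0.96 at these times. The difference between the times was not tested.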

How the results depend on the processing

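Hmox1 at 6 h kept its direction and stayed past 2-fold under all 11 alternatives that give it a value, at 1.20 with scale normalization between arrays and 1.54 in Cy5 alone, against 1.37. At 4 h the count of members past 2-fold, 0, became 1 in the processed signals and in the deposited ratios and 2 in Cy5 alone or under a rule of 1.5-fold. At 6 h the count of 1 became 2 under the same 4 alternatives: the second gene was Gclm in the processed signals and the deposited ratios and Sqstm1 in Cy5 alone and at 1.5-fold. At 1 h median centring in place of loess gave 7 in place of 0, but it moved the median of all genes to 0.86 and put 3030 of 10369 genes past 2-fold; 7 of the 10 members lay above that median. All genes past 2-fold, given as higher then lower, numbered 34 and 5 at 1 h, 25 and 22 at 4 h, and 47 and 48 at 6 h; in the processed signals these were 117 and 42, 144 and 99, and 229 and 195, with scale normalization 64 and 16, 46 and 23, and 69 and 49, with median centring at 6 h 41 and 110, with an offset of 16 at 4 and 6 h 31 and 34, and 65 and 70, and in Cy5 alone 39 and 70, 49 and 118, and 159 and 217. At 1 h directions turned for Hmox1 (-0.06) and Gsr (-0.06) with scale normalization, Prdx1 on its brightest probe (-0.10), Slc7a11 with median centring (0.22), Gclm in Cy5 alone (-0.20), and under several alternatives for Gclc (above 0 in 7 of 11) and Txnrd1 (above 0 in 2 of 11). At 4 and 6 h they turned for Gclm in Cy5 alone (-0.07 and -0.06) and at 4 h for Nqo1 with an offset of 16 (-0.02); the other 8 members then lay above 0 under all 11 alternatives. No paired analysis was possible because each group has 1 array. Nqo1, Slc7a11 and Gclm lay close to background, which limits their values.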

Other observations

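Some genes of these pathways changed in both dyes of a spot by nearly the same amount, although the reference held the same RNA on every array. Prdx4, a peroxiredoxin of the endoplasmic reticulum, had processed Cy5 signals of 1163, 21.3, 332 and 6612 in untreated cells and at 1, 4 and 6 h, and reference signals of 1135, 9.14, 366 and 7711; at 1 h neither dye was well above background. Cul3, the scaffold of the ligase that degrades NRF2, read 1561, 1021, 833 and 214 in Cy5 and 1237, 799, 627 and 164 in the reference, and its ratio differed by 0.02, -0.04 and -0.18. These genes were chosen after their values were seen.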
